A study of Sus scrofa domesticus with 8 samples.

Results

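HMGCS1, SQLE, CYP51 and SC5D encode 4 enzymes of cholesterol synthesis, and their transcripts were followed in porcine ovarian granulosa cells over 144 h of culture. Each gene was taken by its symbol in the platform annotation of the array, and each had 1 feature, so 4 of 10707 named genes are described here, or 4 of 27558 features. Granulosa cells are somatic cells of the follicle that enclose and nourish the oocyte. The donors were 43 crossbred Landrace gilts (median age 170 days, 98 kg), and culture was in DMEM containing 2% fetal bovine serum. RNA was taken at 0 h (before culture), 48 h, 96 h and 144 h. Every time had 2 arrays, 8 in all, and no group received another agent or carried another genotype. Nothing in the labels ties the 2 arrays of a time to different animals, pools or dishes, and the p-values therefore reflect array-to-array spread that may be purely technical. Values are log2 intensities made by robust multi-array averaging (RMA), and a difference of 1 is a fold of 2.

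Cholesterol is built from acetyl-CoA through mevalonate, isoprenoids, squalene and lanosterol. HMGCS1 acts early and makes HMG-CoA, a precursor of mevalonate. SQLE, squalene epoxidase, acts on squalene in the part of the pathway that only sterols use. CYP51 removes a methyl group from lanosterol, and SC5D, lathosterol oxidase, introduces a ring double bond close to the end. In mammalian cells the genes of this pathway are known targets of SREBP transcription factors, which are released when sterols in the endoplasmic reticulum are low. In granulosa and luteal cells cholesterol is also the starting material of progesterone.

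Facts of the whole series bear on every value below. Array medians ranged from 4.52 to 4.63 and lower quartiles from 3.13 to 3.25. The arrays of a time correlated at 0.985 at 144 h and between 0.993 and 0.997 at the other times. Of 36 ribosomal protein genes, 9 were called higher and 6 lower in the comparison of 96 h with 48 h. Over all features, 13.4% were called higher and 16.0% lower there. Between 144 h and 48 h limma called 0 of the 36 (1 at an unadjusted p below 0.05), where 4.32% of features were called higher and 4.32% lower. Array batches are not labelled, and any that ran along with the times cannot be told apart from them. Of 10 granulosa markers 5 were measured, and all 5 were called lower at 48 h, 96 h and 144 h than at 0 h. Their mean level was 9.67 and 9.77 on the 0 h arrays, 7.30 and 7.33 at 48 h, 5.93 and 5.84 at 96 h, and 5.55 and 6.03 at 144 h. The 4 measured fibroblast markers (DCN, COL1A1, COL3A1 and LUM) were all called higher at these times. Their means were 5.18 and 5.28 at 0 h, 8.14 and 8.12 at 48 h, 9.47 on both 96 h arrays, and 10.78 and 10.44 at 144 h. A dimmer COL1A1 feature was not called at 48 h (0.24, limma adjusted p = 0.458) and rose by 3.42 at 96 h and 2.97 at 144 h. At 48 h, 96 h and 144 h against 0 h, 15.2%, 19.0% and 15.4% of all features were called higher. Called lower were 14.8%, 22.3% and 16.7%. The 5 measured oocyte markers averaged 5.86 and 5.55 at 0 h and between 3.60 and 3.85 later. Macrophage and leukocyte markers (4 measured) averaged between 3.75 and 4.67 on all arrays, with 3 called lower and 1 higher at 96 h against 0 h and 2 lower and 1 higher at 144 h. Endothelial markers (4 measured) averaged between 3.63 and 4.00. The 3 measured theca markers averaged 6.38 and 6.36 at 0 h, 5.68 and 5.74 at 48 h, 4.18 and 3.93 at 96 h, and 4.21 and 4.05 at 144 h. Of these, LHCGR, the luteinizing hormone receptor, which granulosa cells of large follicles also carry, and INSL3 were called lower at 96 h and 144 h against 0 h. CYP17A1, the defining theca enzyme, lay between 2.49 and 3.15 throughout. In RNA of whole cultures, fewer cells of a type and less RNA per cell cannot be told apart, and the part that these shifts have in the results was not tested.

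All 4 enzyme genes were higher after 96 h and after 144 h of culture than in the starting cells. At 96 h the rise was between 2.50-fold, for SC5D, and 5.06-fold, for HMGCS1, and at 144 h between 2.46-fold, for CYP51, and 3.97-fold, for SQLE. At 48 h HMGCS1 and SQLE were called higher than at 0 h and CYP51 and SC5D were not. Every gene differed among the 4 times by limma's moderated F test, with adjusted p of 0.00105 for HMGCS1, 0.00117 for SQLE, 0.000989 for CYP51 and 0.00161 for SC5D. That test called 47.5% of all features, so a difference over time was common on these arrays. Each level of the 4 genes lay above the median of its array, the lowest being SQLE on a 0 h array at the 63.3 percentile.

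**Figure D1:**
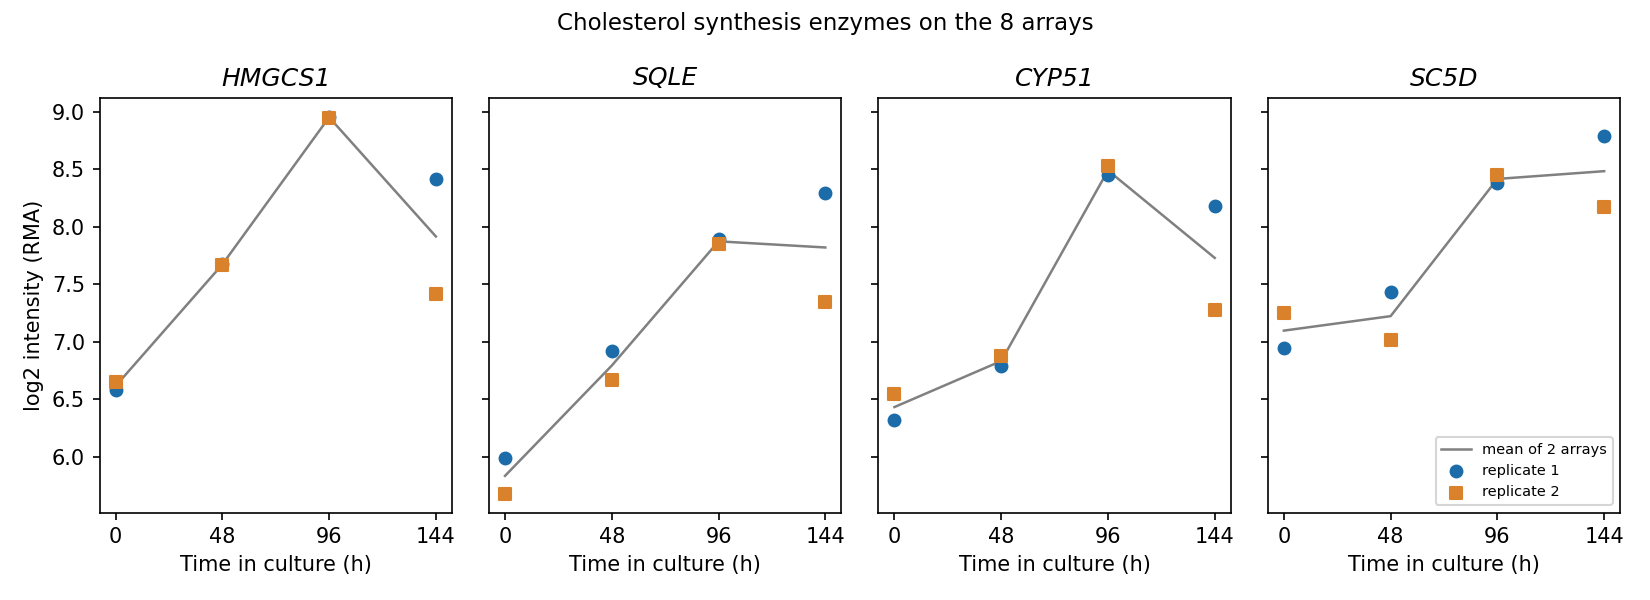
Log2 intensity of HMGCS1, SQLE, CYP51 and SC5D (vertical axis) against hours in culture on the 8 arrays, with circles for replicate 1, squares for replicate 2 and a line through the means of 2 arrays. HMGCS1 and CYP51 are highest on the 96 h arrays, SQLE and SC5D lie at similar means at 96 h and 144 h, and the 144 h arrays lie 0.62 to 1.00 apart for all 4 genes.

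HMGCS1 stood at 6.58 and 6.65 at 0 h, 7.68 and 7.67 at 48 h, 8.96 and 8.95 at 96 h, and 8.42 and 7.42 at 144 h. Both 0 h arrays lay below the other 6 arrays and both 96 h arrays above the other 6, patterns found in 16.5% and 16.1% of all features. The arrays of 48 h and 144 h overlapped. In order of the means, 96 h came first, then 144 h, 48 h and 0 h, and only the neighbours 144 h and 48 h did not differ beyond their spread. HMGCS1 rose by 2.34 ± 0.27 at 96 h against 0 h (SE of the model over all 8 arrays, n = 2 per time, limma adjusted p = 0.000201) and by 1.30 ± 0.27 at 144 h against 0 h (adjusted p = 0.00670). That SE pools all times, while the SD of HMGCS1 was 0.71 at 144 h and at most 0.04 at the other times. In a limma fit to only the 0 h and 144 h arrays the adjusted p was 0.0342. The 144 h difference was 0.80 without 144 h replicate 1 and 1.80 without 144 h replicate 2. HMGCS1 was the member with a called decline late in culture. At 144 h its mean was 7.92, against 8.95 at 96 h, a difference of -1.04 ± 0.27 (adjusted p = 0.0279), and the call was lost without any of the 0 h or 96 h arrays (0.0504 to 0.131).

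SQLE stood at 5.99 and 5.68 at 0 h, 6.92 and 6.67 at 48 h, 7.90 and 7.85 at 96 h, and 8.30 and 7.35 at 144 h. Its 0 h arrays also lay below the other 6, as those of CYP51 did, and the 96 h values fell between the values of the 144 h arrays. The order of the means was 96 h, 144 h, 48 h and 0 h. Of the neighbours, 96 h and 144 h did not differ beyond their spread. The neighbours 144 h and 48 h were not called apart either (1.03 ± 0.28, adjusted p = 0.0614). SQLE rose by 2.04 ± 0.28 at 96 h against 0 h (adjusted p = 0.000507). At 144 h it was 1.99 ± 0.28 above 0 h (adjusted p = 0.000831). The difference between 144 h and 96 h was -0.05, with a 95% interval from -0.69 to 0.59, so these arrays leave room for a change of about that size in either direction.

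CYP51 stood at 6.32 and 6.55 at 0 h, 6.79 and 6.88 at 48 h, 8.45 and 8.53 at 96 h, and 8.18 and 7.28 at 144 h. No times overlapped, and the means ran 96 h, 144 h, 48 h and 0 h. The share of all features without overlap among the times was not counted, so this is a description only. The neighbours 48 h and 0 h, 144 h and 48 h, and 144 h and 96 h were nevertheless not called apart. CYP51 rose by 2.06 ± 0.26 at 96 h against 0 h (adjusted p = 0.000310) and by 1.30 ± 0.26 at 144 h against 0 h (adjusted p = 0.00527). The 144 h difference was 0.85 without 144 h replicate 1 and 1.75 without 144 h replicate 2. Its step between 48 h and 96 h, 1.66 ± 0.26 (adjusted p = 0.00206), was larger than its difference of 0.40 ± 0.26 between 48 h and 0 h (adjusted p = 0.294), although the 2 steps were not tested against each other.

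SC5D stood at 6.94 and 7.25 at 0 h, 7.43 and 7.01 at 48 h, 8.38 and 8.45 at 96 h, and 8.80 and 8.17 at 144 h. The 0 h and 48 h arrays overlapped, and the 96 h values fell between those of the 144 h arrays. Every array of the 2 later times lay above every array of the 2 earlier ones. How many of all features share that pattern was not counted, so it is a description only. The means ran 144 h, 96 h, 48 h and 0 h, and neither 144 h and 96 h nor 48 h and 0 h differed beyond their spread. SC5D rose by 1.32 ± 0.23 at 96 h against 0 h (adjusted p = 0.00184) and by 1.39 ± 0.23 at 144 h against 0 h (adjusted p = 0.00198). The difference between 48 h and 0 h was 0.13, with a 95% interval from -0.40 to 0.65.

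The comparison of 48 h with 0 h covers plating and the first part of the culture. HMGCS1 had a mean of 7.67 at 48 h, against 6.61 at 0 h, a difference of 1.06 ± 0.27 (limma adjusted p = 0.0193). SQLE had 6.79 at 48 h, against 5.83 at 0 h, a difference of 0.96 ± 0.28 (adjusted p = 0.0323). Thus 2 of 4 members were called, both higher, while 15.2% of all features were called higher and 14.8% lower. In a limma fit to only the 4 arrays compared, the adjusted p was 0.000893 for HMGCS1 and 0.00571 for SQLE. Without any single array the difference was 1.03 to 1.09 for HMGCS1 and 0.80 to 1.12 for SQLE. Both calls were nevertheless lost in the pooled model without any array of the pair. Those fits keep the gap between the 144 h arrays in the shared spread. Without any array of 48 h or 0 h the adjusted p was 0.0776 to 0.0921 for HMGCS1 and 0.0700 to 0.171 for SQLE, and SQLE also missed without either 96 h array, at 0.0576. CYP51, by contrast, passed without either 144 h array, at 0.0287.

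The comparison of 96 h with 48 h covers the second interval, and all 4 members were called higher. SC5D had a mean of 8.42 at 96 h, against 7.22 at 48 h, a difference of 1.19 ± 0.23 (adjusted p = 0.00550). HMGCS1 differed by 1.28 ± 0.27 (adjusted p = 0.00884) and SQLE by 1.08 ± 0.28 (adjusted p = 0.0207). Over all features, 13.4% were called higher and 16.0% lower between these times. In a limma fit to only the 4 arrays compared, the adjusted p was 0.000359 for HMGCS1 and 0.00141 for SQLE. Without any single array the difference was 1.27 to 1.29 for HMGCS1 and 0.96 to 1.21 for SQLE. Fits without an array of 48 h or 96 h keep the gap between the 144 h arrays in the shared spread. The calls of CYP51 and SC5D held when any 1 array was left out. That of HMGCS1 was lost without either 96 h array (0.0532 and 0.0558) and that of SQLE without any array of 48 h or 96 h (0.0599 to 0.109), which leaves 2 members called without either 96 h array.

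For the span from the start to 96 h, 4 of 4 members were called higher, where 19.0% of all features were called higher and 22.3% lower. For the span to 144 h, 4 of 4 were called higher, where 15.4% of features were called higher and 16.7% lower. The members' median difference was 2.05 at 96 h and 1.34 at 144 h, beside -0.03 and -0.05 over all features. These comparisons share the 0 h arrays. All 8 differences stayed positive without any single array. The 144 h calls were kept without the 96 h arrays and in a fit to the 4 arrays compared (limma adjusted p from 0.00768 to 0.0342).

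The 144 h arrays, which enter every late difference, lay far apart for these genes. Replicate 1 lay above replicate 2 by 1.00 for HMGCS1, 0.95 for SQLE, 0.90 for CYP51 and 0.62 for SC5D. Gaps larger than these were found at 144 h in 1.94%, 2.35%, 2.77% and 8.97% of all features. At 96 h the gaps of the 4 genes were at most 0.09. Over all features, replicate 1 was the higher of the 2 arrays at 144 h in 47.6%, with a median gap of -0.02. Leaving out a 144 h array takes the members' gap out of the estimated spread. Calls gained or kept that way therefore cannot show that a result holds.

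Between 144 h and 48 h, SC5D was the member called, with 8.48 at 144 h, against 7.22 at 48 h, a difference of 1.26 ± 0.23 (adjusted p = 0.0119). The call was lost without 48 h replicate 2 (0.0849) and in a fit to the 4 arrays compared (0.0727). SQLE differed by 1.03 ± 0.28 (adjusted p = 0.0614), CYP51 by 0.90 ± 0.26 (adjusted p = 0.0751) and HMGCS1 by 0.24 ± 0.27 (adjusted p = 0.703). Of all features, 4.32% were called higher and 4.32% lower. Without 144 h replicate 2 all 4 members were called higher, and HMGCS1 differed by 0.74. Without 144 h replicate 1 HMGCS1 differed by -0.26, so its sign depended on which array was kept.

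Between 144 h and 96 h, 1 of 4 members, HMGCS1, was called lower, where 10.1% of features were called lower and 12.1% higher. CYP51 differed by -0.76 ± 0.26 (adjusted p = 0.0702) and passed without 144 h replicate 1, at -1.21 (adjusted p = 0.00143). SC5D differed by 0.07, with a 95% interval from -0.45 to 0.59. Without 144 h replicate 1 the SC5D difference was -0.24, and without 144 h replicate 2 the SQLE difference was 0.42, neither called.

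**Figure D2:**
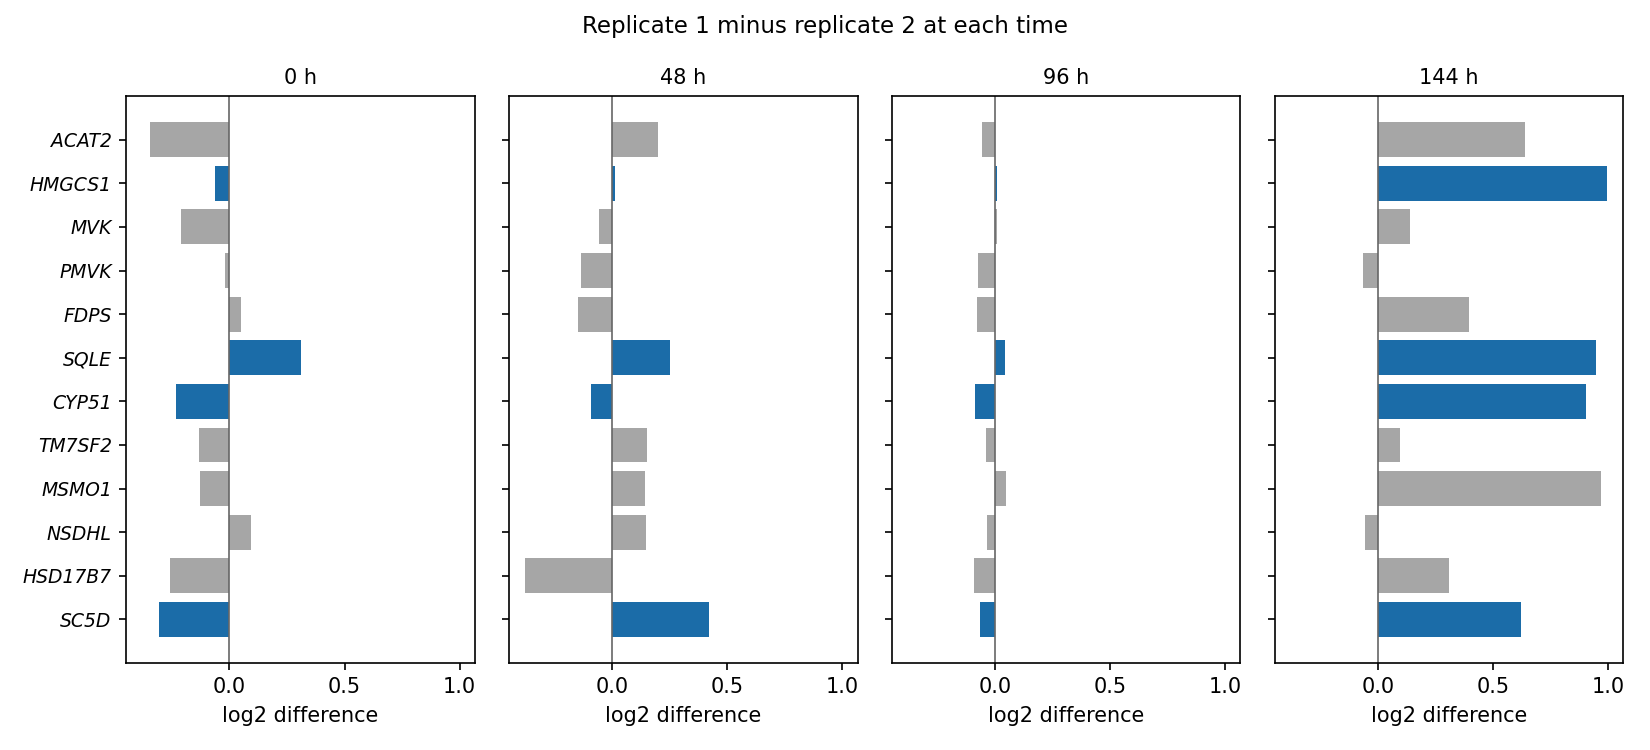
Log2 level of replicate 1 minus that of replicate 2 (horizontal axis) for 12 enzymes of the pathway at 0 h, 48 h, 96 h and 144 h, with the 4 members as blue bars and the other enzymes as grey bars. At 144 h all 4 members, ACAT2 and MSMO1 have long bars to the right (0.62 to 1.00), while PMVK and NSDHL lie at -0.06.

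The 4 courses were also set against each other. Pearson's correlation over the 8 arrays ran from 0.79, for HMGCS1 and SC5D, to 0.95, for HMGCS1 and CYP51, as a description of 8 points that share arrays and come in 4 times. The difference between 2 members on the same array removes what an array does to both. HMGCS1 minus SC5D was -0.36 and -0.60 at 0 h, 0.25 and 0.65 at 48 h, 0.57 and 0.50 at 96 h, and -0.38 and -0.76 at 144 h. Both middle times thus gave higher differences than the start and the end, with no overlap. This pair did not pass the exact permutation test described next (p = 0.0762, adjusted p = 0.103). Over the 6 pairs, an exact permutation test of the 4 times, chosen after seeing the data, gave p between 0.0286 and 0.114, and no pair passed after Benjamini-Hochberg adjustment (0.103 to 0.114, where the smallest raw p possible was 0.00952). With 6 pairs, even the smallest raw p would not pass for a pair by itself, so this test does not show whether the courses were equal. HMGCS1 minus CYP51, the pair with the lowest raw p, was 0.27 and 0.10 at 0 h, 0.89 and 0.79 at 48 h, 0.51 and 0.42 at 96 h, and 0.23 and 0.14 at 144 h. Its 48 h differences lay above those of every other time.

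Other enzymes of the pathway moved mostly with the members at 96 h. Of 17 listed enzymes 8 were measured. At 96 h against 0 h, 6 of these were called higher and none lower, with a median of 0.68 beside -0.03 over all features. Of all features, 19.0% were called higher there and 22.3% lower. FDPS, which makes farnesyl diphosphate, rose by 2.51 ± 0.15 (adjusted p = 5.26e-06). It stood at 5.93 and 5.88 at 0 h, 6.09 and 6.24 at 48 h, 8.38 and 8.46 at 96 h, and 7.25 and 6.86 at 144 h, so its 96 h arrays lay above all others. ACAT2, which joins the first acetyl-CoA units, rose by 1.84 ± 0.21 at 96 h. TM7SF2, a sterol reductase, rose by 1.11 ± 0.12 and HSD17B7, a sterol keto-reductase, by 0.88 ± 0.17. PMVK and NSDHL rose by 0.39 ± 0.11 and 0.33 ± 0.11. MVK, mevalonate kinase, differed by 0.30 ± 0.12 (adjusted p = 0.0761) and MSMO1, a sterol methyl oxidase, by 0.48 ± 0.27 (adjusted p = 0.201).

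At 144 h against 0 h, 15.4% of all features were called higher and 16.7% lower. Of the 8 enzymes, 5 were called higher and none lower (median 0.68, beside -0.05 over all features). They were TM7SF2 (1.18 ± 0.12), FDPS (1.15 ± 0.15), ACAT2 (0.99 ± 0.21), HSD17B7 (0.66 ± 0.17) and MVK (0.38 ± 0.12). The count was 2 without 0 h replicate 1 and 3 without 144 h replicate 1. MSMO1 stood at 9.36 and 8.39 at 144 h, against 8.12 and 8.25 at 0 h, a difference of 0.69 ± 0.27 (adjusted p = 0.0875), with a gap between its 144 h arrays like those of the members. Between 144 h and 96 h, FDPS (-1.36 ± 0.15), ACAT2 (-0.85 ± 0.21) and PMVK (-0.44 ± 0.11) fell and none of the 8 rose, and without either 96 h array the count was 1. Of all features, 10.1% were called lower and 12.1% higher between 144 h and 96 h. At 48 h against 0 h, 1 of the 8, HSD17B7, was called, at 0.77 ± 0.17 (adjusted p = 0.0112). That count is near the share over all features, of which 15.2% were called higher. The call was lost without 0 h replicate 1 or 48 h replicate 2. The remaining enzymes of the list were not analysed here.

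**Figure D3:**
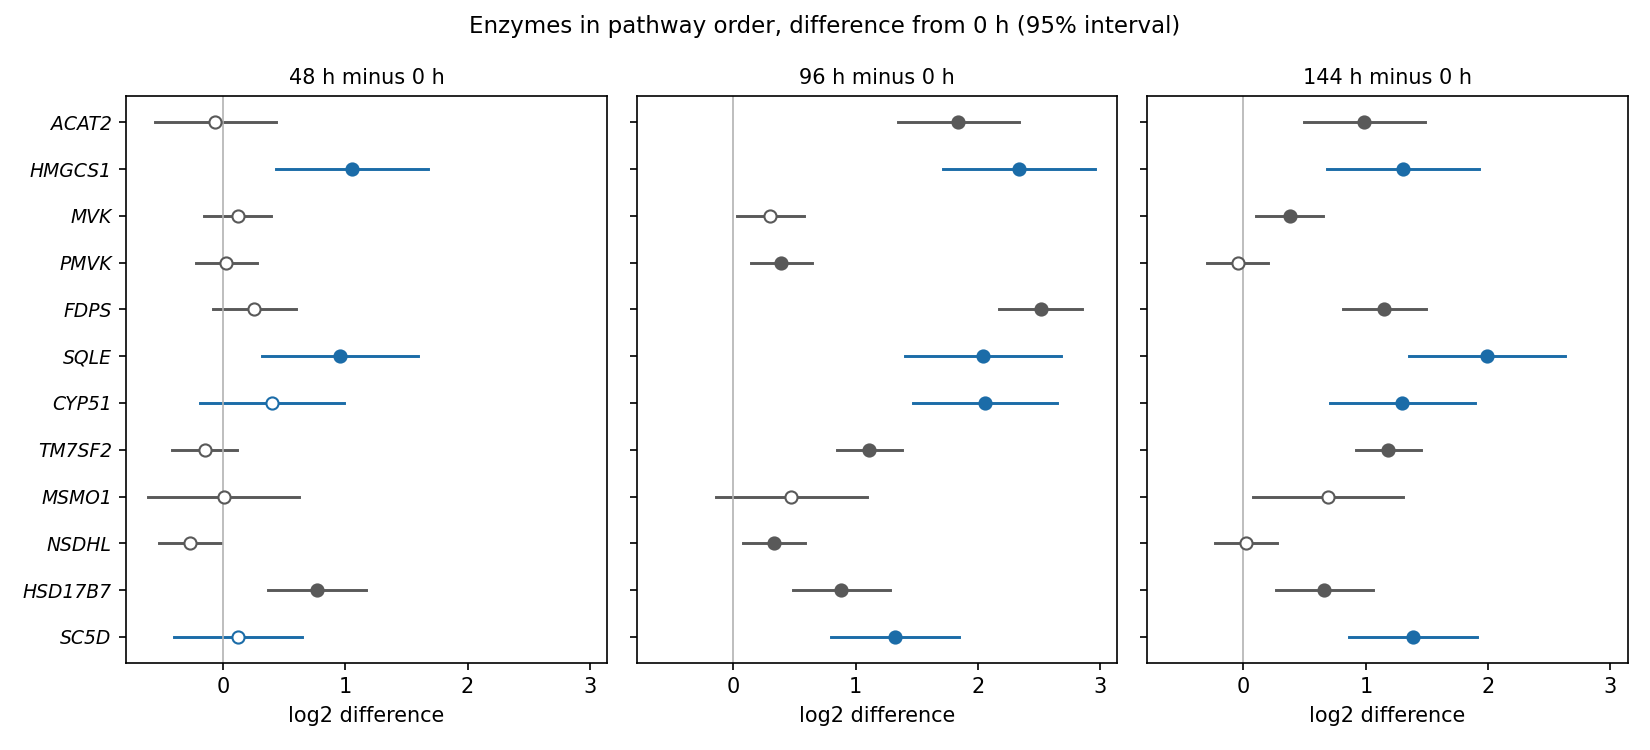
Log2 difference from 0 h (horizontal axis) at 48 h, 96 h and 144 h for 12 enzymes in pathway order, with 95% intervals from the limma model, filled points where the adjusted p was below 0.05 and the 4 members in blue. At 48 h HMGCS1, SQLE and HSD17B7 are filled, and at 96 h all but MVK and MSMO1 are.

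Genes that sense and control sterols moved in several directions. Of 7 measured, 3 were called higher and 2 lower at 96 h against 0 h, and 2 higher and 1 lower at 144 h. Over all features, 19.0% were called higher and 22.3% lower at 96 h, and 15.4% and 16.7% at 144 h. INSIG1, which holds the SREBP complex in the endoplasmic reticulum when sterols are plentiful and is itself an SREBP target, stood at 5.91 and 5.87 at 0 h, 5.14 and 5.43 at 48 h, 8.09 and 8.20 at 96 h, and 6.80 and 6.36 at 144 h. It fell by 0.61 ± 0.17 at 48 h against 0 h (adjusted p = 0.0270), while HMGCS1 and SQLE rose, and it rose by 2.25 ± 0.17 at 96 h against 0 h. NR1H3, the sterol-activated receptor LXR alpha, rose by 1.23 ± 0.10 at 96 h, or by 3.16 by its other feature. At 144 h against 0 h the feature used rose by 0.60 (adjusted p = 0.00248). The other, with a mean level of 3.66, differed by 0.12 and was not called (adjusted p = 0.518). MYLIP, whose ligase removes lipoprotein receptors, fell by 2.40 ± 0.22 at 96 h and by 2.93 ± 0.22 at 144 h against 0 h.

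The fatty acid genes that SREBP factors also control rose with the enzymes. Of 7 measured, 7 were called higher at 96 h against 0 h and 6 at 144 h, none lower, with medians of 1.07 and 0.82. Over all features, 19.0% were called higher at 96 h and 15.4% at 144 h. ACACA, which makes malonyl-CoA, stood at 7.06 and 7.08 at 96 h, against 4.98 and 5.01 at 0 h, a rise of 2.07 ± 0.15. SCD, stearoyl-CoA desaturase, rose by 1.31 ± 0.24 at 96 h and 1.35 ± 0.24 at 144 h, and FADS1, a desaturase whose 2 features hold the same values, by 1.07 ± 0.11 and 0.96 ± 0.11. At 48 h 2 of the 7, ACACA among them, were called higher, beside 15.2% of all features. All 7 were higher on 144 h replicate 1 than on replicate 2, by a median of 0.34.

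Uptake, export and use of cholesterol changed gene by gene. Over all features, 15.4% were called higher and 16.7% lower at 144 h against 0 h, and some of the small counts here are near these shares. Of 11 measured uptake and movement genes, 5 were called higher and 3 lower at 144 h against 0 h. NPC2, which carries cholesterol out of lysosomes, rose by 1.83 ± 0.10. LRP8, a lipoprotein receptor, fell by 2.98 ± 0.12 and SCARB1, the receptor for high density lipoprotein, by 1.08 ± 0.18. Of 5 export and ester genes 2 were higher and 1 lower, with ABCA1, the cholesterol exporter, at 1.58 ± 0.14, the sterol hydroxylase gene CYP27A1 at 1.24 ± 0.17 and the ester hydrolase NCEH1 at -0.83 ± 0.11. Of 4 genes of the isoprenoid branch none was called at 144 h (limma, unadjusted p below 0.05 in 2), with the prenyl chain synthase genes PDSS1 at 0.57, DHDDS at 0.35 and GGPS1 at 0.26. All 3 measured steroid hormone genes were called at 144 h against 0 h. HSD3B1 rose, and stood at 9.81 and 9.91 at 144 h, against 3.62 and 3.17 at 0 h. Its 0 h levels lay at the 33.3 and 23.4 percentile of their arrays and were not shown to be above background, so the measured difference of 6.46 ± 0.16 is best read as a lower bound. FDXR fell by 3.40 ± 0.12. HSD17B1 fell by 6.63 ± 0.14, to 4.32 and 4.10 at 144 h, below the medians of those arrays, against 10.78 and 10.90 at 0 h.

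**Figure D4:**
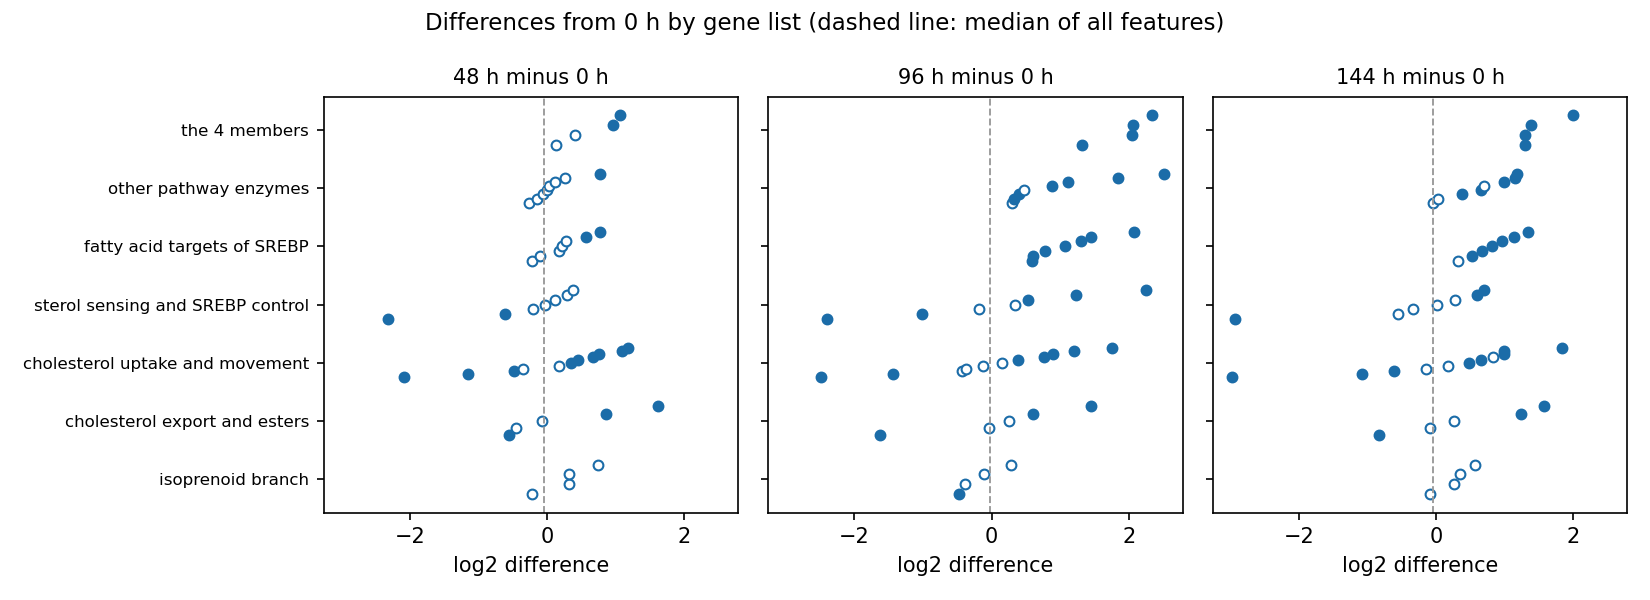
Log2 difference from 0 h (horizontal axis) at 48 h, 96 h and 144 h, with 1 point per measured gene, filled where called, for the 4 members and 6 gene lists, and a dashed line at the median of all features. At 96 h all members and all fatty acid targets lie to the right of the line and are filled, while the sterol sensing and uptake lists spread to both sides.

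The genes with the most similar courses were sought by Pearson's correlation over the 8 arrays among 4793 other named genes whose SD over the arrays was at least 0.3. They describe likeness only, since 8 points in 4 times give many high values. For HMGCS1 they were GGNBP2 (0.996), MRPS31 (0.996), TSTD3 (0.993), STXBP6 (0.991) and PLEKHA1 (0.991). For SQLE they were FAM129A (0.984), GREM1 (0.984), SH3GLB1 (0.983), RAB3GAP2 (0.982) and WWP1 (0.982). CYP51 was most like CSGALNACT2 (0.994), PDZD8 (0.990), FRZB (0.983), TAB2 (0.983) and COL11A1 (0.982), and ACAT2 (0.972) and FDPS (0.965) held ranks 19 and 31 in its order. SC5D was most like CRHR1 (0.989), SCD (0.984), ACSS2 (0.979), UROD (0.978) and AKAP5 (0.977), of which SCD and ACSS2 belong to the fatty acid list, and TM7SF2 (0.964) held rank 15. HMGCS1 had no measured pathway enzyme nearer than CYP51, at rank 143.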

How the data were processed

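Total RNA of 8 samples was labelled with biotin for Affymetrix whole-transcript arrays, per the labels' protocols. The deposited table holds log2 intensities that the authors made by RMA, per the submitters' processing notes. Its software was not given in the sources used here. RMA equalizes the distributions of the arrays and can hide a shift common to nearly all transcripts. The values were used without further normalization or filter. Gene names come from GEO's annotation of the platform, in which 11735 features had 1 symbol, 612 several and 15211 none. Newer symbols replaced 6 old ones by gene identifier. The feature with the highest mean stood for a gene.

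Using limma 3.58.1 (R 4.3.3), 1 linear model with a mean for each time was fitted across the 8 arrays (4 residual degrees of freedom, prior 3.98). Tests are two-sided, adjusted by Benjamini-Hochberg over 27558 features, and called below 0.05. The number of arrays limits the precision. All times share 1 estimate of the spread, although the members' 144 h arrays differed more than those of the other times. Where an array is left out, the lone array of its time is assumed to vary like the others. The steps were tested on simulated data.

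Members, gene lists and naming rule were chosen with earlier results of these data known. The text names all measured pathway enzymes, up to 3 genes of each other list with the largest difference at 144 h against 0 h, and the 5 genes most like each member. Sequences were not used here. Replicate numbers were checked as a pairing and did not pair the arrays (correlation of deviations from -0.04 to 0.19).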

Additional observations from a re-analysis of the deposited data

How the results depend on the processing

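Of 16 called member differences, recomputed 257 times, all 257 values kept their direction and 233 their call, and the differences at 96 h and 144 h against 0 h, and those of CYP51 and SC5D at 96 h against 48 h, kept both throughout. Each of the other calls was lost in at least 1 setting. Settings without a 144 h array take the gap between those arrays out of the spread, so calls kept there are no check. With the 96 h arrays left out, an alternative chosen after seeing the data, SQLE at 48 h against 0 h (0.96) was no longer called and the members called numbered 1; with the 144 h arrays left out, also chosen then, CYP51 there (0.40) was. After cyclic loess SC5D at 48 h against 0 h was -0.010, and CYP51 at 144 h against 96 h (-0.82) was called, which made 2 members. At an adjusted p below 0.01 the members called were 0 at 48 h against 0 h, at 144 h against 48 h and at 144 h against 96 h, and with a fold of at least 2 they were 1 at 48 h against 0 h. In a fit to only the 4 arrays compared, SC5D at 144 h against 48 h (1.26) and HMGCS1 at 144 h against 96 h (-1.04) were not called, leaving 0 members in both. With dim features left out SQLE at 144 h against 48 h (1.03) was called, making 2. Leaving out arrays of other times, fitting only the 4 arrays compared and leaving out dim features did not change the differences themselves. These settings altered only the estimated spread, its degrees of freedom and the adjustment for multiple tests. The cause of the other shifts was not tested.

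Leaving out each array in turn gave, at 48 h against 0 h, 1.03 to 1.09 for HMGCS1, 0.28 to 0.52 for CYP51, 0.80 to 1.12 for SQLE, -0.083 to 0.34 for SC5D and 0 to 3 members called. At 96 h against 48 h HMGCS1 ran from 1.27 to 1.29, SQLE from 0.96 to 1.21 and the count from 2 to 4. At 144 h against 0 h the ranges were 0.80 to 1.80 for HMGCS1, 0.85 to 1.75 for CYP51, 1.51 to 2.46 for SQLE and 1.08 to 1.70 for SC5D. At 144 h against 48 h they were -0.26 to 0.74 for HMGCS1, 0.45 to 1.35 for CYP51, 0.55 to 1.50 for SQLE, 0.95 to 1.57 for SC5D and 0 to 4 called. At 144 h against 96 h they were -1.54 to -0.54 for HMGCS1, -1.21 to -0.31 for CYP51, -0.53 to 0.42 for SQLE, -0.24 to 0.38 for SC5D and 0 to 2 called.

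With the replicate block, SQLE at 144 h against 48 h (1.03, adjusted p = 0.0258) was called, making 2 members there, and no other member call changed. The block moved the features called at 144 h against 48 h to 2321, against 2381 without it.

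Counts over all features moved by over 1.5 times in these cases. With a fold of at least 2, they were 3038 in place of 8260 at 48 h against 0 h, 5147 in place of 11375 at 96 h against 0 h, 3676 in place of 8845 at 144 h against 0 h, 2669 in place of 8089 at 96 h against 48 h, 865 in place of 2381 at 144 h against 48 h and 1710 in place of 6115 at 144 h against 96 h. At an adjusted p below 0.01 they were 5147 at 48 h against 0 h, 4688 at 96 h against 48 h, 1120 at 144 h against 48 h and 3033 at 144 h against 96 h. At 144 h against 48 h they were also 825 with the 4 arrays compared, 1576 without the 96 h arrays and 1070 to 3879 without single arrays. Without single arrays they went down to 4198 at 96 h against 48 h and to 2437 at 144 h against 96 h. The other pathway enzymes called were 3 in place of 6 at 96 h against 0 h and 2 in place of 5 at 144 h against 0 h with a fold of at least 2, and 1 in place of 3 with the 4 arrays compared at 144 h against 48 h and against 96 h. With a fold of at least 2 they were also 3 in place of 5 at 96 h against 48 h, 1 in place of 3 at 144 h against 96 h and 0 in place of 1 at 48 h against 0 h. At an adjusted p below 0.01 they were 3 in place of 5 at 144 h against 0 h, 1 in place of 3 at 144 h against 96 h and 0 in place of 1 at 48 h against 0 h. They were 2 in place of 1 at 48 h against 0 h after quantile normalization or cyclic loess, and 1 in place of 3 at 144 h against 48 h without 48 h replicate 1. Each member had 1 feature, so another feature could not be tried. No detection call was used, so signal over background was not tested.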

Other observations

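STARD4, which moves cholesterol between membranes and was named after its values were seen, stood at 5.23 and 5.15 at 0 h, 4.75 and 4.92 at 48 h, 6.99 and 6.90 at 96 h, and 6.57 and 5.47 at 144 h. It rose by 1.76 ± 0.30 at 96 h against 0 h (limma adjusted p = 0.00174), with a median over the 11 uptake and movement genes of 0.15. At 144 h against 0 h it differed by 0.83 ± 0.30 (adjusted p = 0.0684).

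SCAP, the escort protein of SREBP factors, was also named after its values were seen. It stood at 7.59 and 8.66 at 144 h, against 8.66 and 8.71 at 0 h, so replicate 1 was the lower 144 h array, by 1.07, where it was the higher for all 4 members. At 96 h its level was 7.66 and 7.67, a difference of -1.02 from 0 h (adjusted p = 0.0218), and its other feature differed by -1.01.

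NPC1, the membrane partner of NPC2 and likewise named after its values were seen, stood at 9.34 and 9.04 at 48 h, against 8.49 and 8.54 at 0 h, and at 8.07 and 8.08 at 96 h. APOE, a lipid carrier named in the same way, stood at 7.30 and 7.34 at 48 h, against 5.74 and 5.65 at 0 h, and at 5.91 and 5.99 at 96 h.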
